A study of Drosophila melanogaster with 7 samples.

Results

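The basement membrane is the thin sheet of extracellular matrix under an epithelium. Its transcripts were followed in dissected adult Drosophila midgut as 10 genes picked by symbol: the collagen IV chains Col4a1 and vkg, the laminin chains LanA, wb, LanB1 and LanB2, perlecan (trol), nidogen (Ndg), SPARC and peroxidasin (Pxn). All 10 are among the 10902 genes of the count table, and all 10 had counts enough to be tested. The 7 midgut libraries fall into 3 groups, all carrying esgts, a temperature-sensitive Gal4 system active in intestinal stem cells and their immediate daughters. Control flies were esgts> w1118 (3 libraries). Flies of the group called Shn-RNAi (2 libraries) expressed RNA interference against schnurri, a nuclear cofactor of BMP signalling. The group called Shn-RNAi puc (2 libraries) also had the allele PucE69 over a normal copy of puckered, a phosphatase that restrains JNK. In every group flies were raised at 18 °C and kept at 29 °C for 7 days as adults, and the crop, Malpighian tubules and hindgut were removed from the gut. The series title orders the groups as wild type, tumor and severe tumor. The RNAi acts only where the driver is active, while RNA came from the whole midgut, muscle included. The strain background of the control cross cannot be told apart from the RNAi. Nothing in the labels says that the libraries came from separate cultures or sets of animals, so every p-value measures the spread between these libraries, which may be technical.

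In flies as in mammals, laminin trimers assemble on cell surfaces into a first network, to which nidogen and perlecan bind, and collagen IV forms a covalently linked second network that gives the sheet its strength. SPARC binds collagen IV on its way out of the cell, and peroxidasin forms the bonds that join collagen IV trimers. Around the midgut the sheet lies between the epithelium and the visceral muscle, and the intestinal stem cells sit on it and hold it through integrins. In fly larvae most collagen IV is made by fat body and hemocytes and reaches other organs through the hemolymph, so transcripts in the gut need not reflect the protein there.

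None of the 10 genes passed the test in any of the 3 comparisons. Some receptors and proteases of the same matrix did in the comparisons with control. All these lists were chosen with earlier results of these data known, so the contrast between them is a description. Several of the receptor and protease calls were lost when 1 library was left out. Col4a1, vkg and Ndg were far higher in control library 2 than in the other control libraries, and the direction of their differences from control depended on that library. LanB1, wb and trol stood higher in both Shn-RNAi libraries than in every control library, as did 22.1% of all genes. Their fitted group differences were 1.37- to 1.71-fold and did not pass the adjustment over all genes, and for LanB1 and trol Shn-RNAi library 2 was less than 1 CPM above control library 2.

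Total counts ran from 11552527 to 18490676 per library, and the 10 genes together held between 0.0168% and 0.0385% of them. Levels are given as CPM, counts scaled to a common library size with TMM factors. The targeted gene shn ran from 42.4 to 47.4 CPM over the controls, while the library pair labelled Shn-RNAi had 68.6 and 54.1 CPM and the pair labelled Shn-RNAi puc 66.5 and 69.7 CPM. Its transcript was thus not lower in whole midgut under either RNAi label, and the direction of each comparison rests on the labels. Midgut markers were abundant: alphaTry, a trypsin of enterocytes, ran from 29104 to 47793 CPM. Control library 2 stood apart from the other controls in a set of genes. Beside Col4a1 and vkg, the 40 with the largest excess there included, named after their values were seen, the heat shock genes Hsp26 (3.25 above the mean of control libraries 1 and 3 on the log2(CPM + 0.5) scale) and Hsp27 (3.20) and the cuticle gene Cpr51A (4.41). Of all 9076 genes tested, 1.64% were more than 2-fold higher there. Libraries also differed in how abundant long transcripts were. With genes split by longest transcript into 4 classes of equal size, the median of the top class (3357 bases and more) minus that of the bottom class came to log2 values of 0.59 and -0.25 in the Shn-RNAi libraries, 0.08 and 0.32 in the Shn-RNAi puc libraries, and -0.31, -0.0014 and -0.39 in the control libraries. This touches 9 of the 10 genes, whose longest transcripts measure 4816 bases (Ndg) to 14232 bases (trol). SPARC, at 1143 bases, is the exception.

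Between genes, levels can be compared only per transcript length. In control midguts the order in CPM per kb of the longest transcript (mean ± SD, n = 3) began with SPARC at 28.1 ± 7.15 and trol at 7.41 ± 0.853. These held the first and second place in all 7 libraries, and their control values did not overlap with each other or with those of any other gene. LanB1 followed at 3.41 ± 0.823, the third in 6 libraries and the fourth in control library 2. Below it came Col4a1 at 2.74 ± 3.48, LanA at 2.72 ± 0.861, LanB2 at 2.38 ± 0.755 and vkg at 1.76 ± 2.15, and the control values of LanB1 and these 4 overlapped. Ndg stood at 0.910 ± 0.939, Pxn at 0.762 ± 0.117 and wb at 0.606 ± 0.108 CPM per kb, again overlapping. Within a library the order was steadier than this spread shows, since LanB1 stood 1.32 to 1.99 times as high as LanB2 per kb in all 7 libraries, and LanA 0.474 to 0.907 times as high as LanB1. The place of Col4a1 ran from the third in control library 2 to the eighth in control library 1. With the median annotated transcript length in place of the longest, every gene's control level moved by less than its SD except wb, which went to 0.753 CPM per kb.

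**Figure D1:**
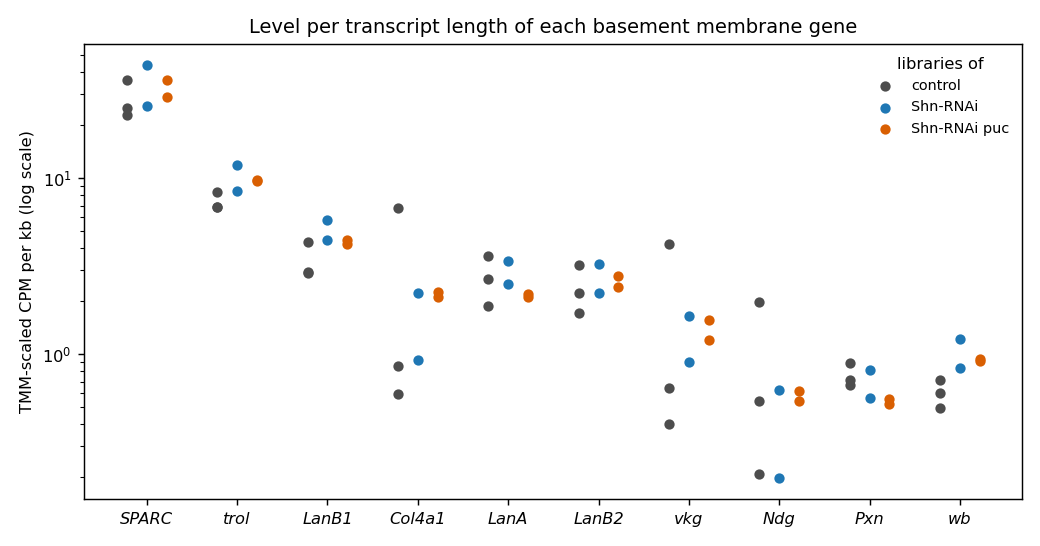
TMM-scaled CPM per kb of the longest annotated transcript (log axis) for the 10 genes, ordered by their control mean; each point is 1 library, coloured by group. SPARC and trol lie above the rest in every library, and the control points of Col4a1, vkg and Ndg are spread most widely.

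Col4a1 (FBgn0000299, BDGP6, 2L 5029609 to 5037279, plus strand) and vkg (FBgn0016075, 2L 5012144 to 5028191, minus strand) encode the α1 and α2 chains that form the collagen IV trimer. They lie head to head, with 1417 bases and no annotated gene between them. Col4a1 stood at 3.65, 41.2 and 5.26 CPM in control libraries 1, 2 and 3, at 13.7 and 5.65 CPM in the Shn-RNAi libraries, and at 12.9 and 13.8 CPM in the Shn-RNAi puc libraries. Its partner vkg stood at 2.58, 27.3 and 4.14 CPM in the controls, 10.6 and 5.80 CPM in Shn-RNAi, and 7.73 and 10.1 CPM in Shn-RNAi puc. For both genes control library 2 was the highest of all 7 and control libraries 1 and 3 the lowest. Each RNAi group thus overlapped with control only through control library 2, and the RNAi groups overlapped with each other. The ratio of Col4a1 to vkg per kb stayed between 1.03 (Shn-RNAi library 2) and 1.76 (Shn-RNAi puc library 1), and was 1.59 in control library 2.

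Ndg (FBgn0026403, 2R 10313891 to 10322104, plus strand), which encodes the nidogen that binds laminin, had 14, 172 and 33 counts in control, 54 and 13 in Shn-RNAi, and 46 and 37 in Shn-RNAi puc. These are 1.00, 9.52 and 2.63 CPM, 3.03 and 0.954 CPM, and 2.99 and 2.61 CPM. Control library 2 was again the highest, and the other 6 libraries of the 3 groups overlapped. On the log2(CPM + 0.5) scale control library 2 exceeded the mean of control libraries 1 and 3 by 3.07 for Col4a1, 2.85 for vkg and 2.11 for Ndg. Only 10, 20 and 38 of the 9076 genes tested, respectively, had a larger excess. Of all 10 genes, 9 were highest among the controls in that library, the exception being wb. So were 9 of 12 matrix receptors and 7 of 8 progenitor markers. The share over all genes was not counted, so the count cannot be read as particular to basement membrane genes.

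Some other matrix genes and markers of other tissues were also highest among the controls in that library. Pericardin (prc), a collagen-like protein of the heart matrix, stood at 0.430, 6.36 and 0.557 CPM in the 3 control libraries, and Glt, a basement membrane glycoprotein, at 2.29, 15.3 and 1.75 CPM. Tig (tiggrin), an integrin ligand of muscle attachments, stood at 2.22, 8.80 and 1.19 CPM. Among the controls, fat body markers were highest in control library 2 for 6 of the 6 measured. Over all 7 libraries this did not hold for Apoltp, at 8.63 CPM there and 11.3 CPM in Shn-RNAi library 1. Fat body markers had summed levels of 632, 858 and 444 CPM in control libraries 1 to 3. They summed to 613 and 343 CPM in Shn-RNAi and 410 and 372 CPM in Shn-RNAi puc. Of the control sums Yp1, not a defining marker, gave 318, 442 and 215 CPM. The defining fat body marker apolpp stood at 27.5, 60.9 and 15.3 CPM in the controls. Among the controls, tracheal markers were highest in control library 2 for 4 of 5. These markers summed to 15.3, 50.1 and 22.7 CPM in the controls, 13.2 and 16.7 in Shn-RNAi, and 16.2 and 20.2 in Shn-RNAi puc. Of the tracheal markers verm was the highest in control library 2, at 21.97 CPM, while the defining marker btl differed little, at 3.22, 4.04 and 3.19 CPM. Hemocyte markers were highest among the controls in control library 2 for 3 of 8, summing to 55.7, 62.6 and 65.9 CPM in the controls. Of these sums crq, not a defining hemocyte marker, gave 44.1, 48.0 and 49.9 CPM. The defining hemocyte markers were at or near 0 in all controls. Hml stood at 0.430, 0.775 and 0.796 CPM, NimC1 at 0, 0.221 and 0.637 CPM and eater at 0, 0 and 0.0796 CPM. Control library 2 was also the highest control for 7 of 8 progenitor markers, 9 of 12 matrix receptors and 9 of 15 visceral muscle genes. The same held for 6 of 8 secretion and crosslinking genes, 3 of 7 enterocyte markers and 3 of 7 enteroendocrine markers. The part of fat body or tracheal RNA in the collagen values was not tested. In bulk RNA, fewer cells of a type and less RNA per cell cannot be told apart.

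**Figure D2:**
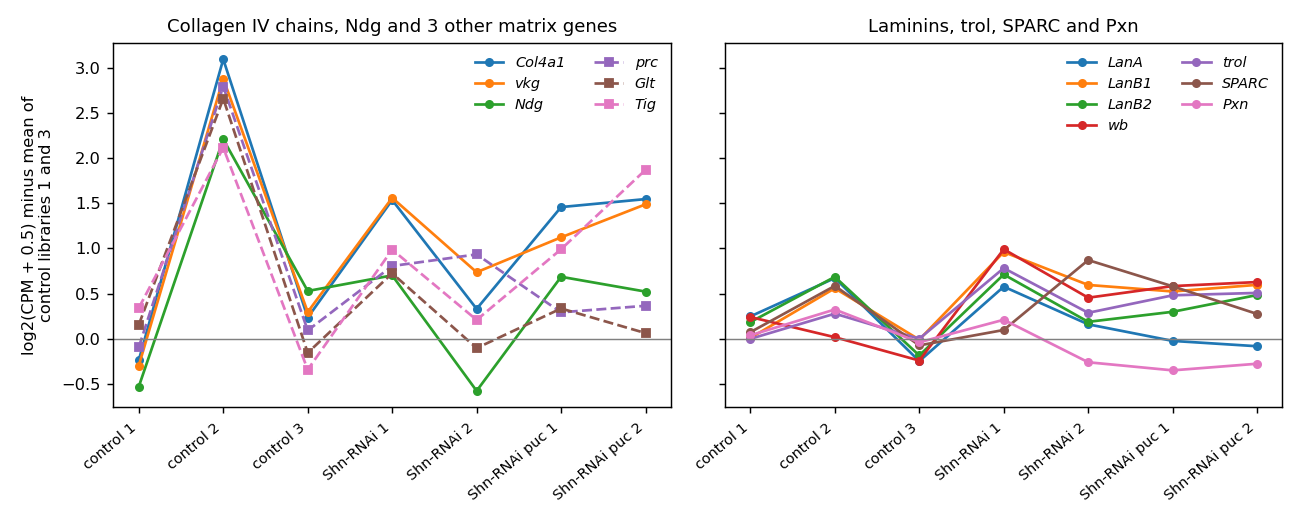
Level of each gene in each of the 7 libraries, as log2(CPM + 0.5) minus the mean of control libraries 1 and 3. On the left, Col4a1, vkg and Ndg peak in control library 2 together with prc, Glt and Tig (dashed); on the right, the laminins, trol, SPARC and Pxn vary by about 1 unit or less.

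Laminins are trimers of an α, a β and a γ chain. Flies have the α chains LanA and wb, which share the β chain LanB1 and the γ chain LanB2. LanB1 (FBgn0261800, 2L 7811438 to 7820771, plus strand), the β chain, reached 18.4, 27.2 and 18.2 CPM in the controls, 36.0 and 27.9 CPM in Shn-RNAi, and 26.5 and 27.9 CPM in Shn-RNAi puc. Both Shn-RNAi libraries lay above all controls, library 2 only narrowly. The log2 difference from control was 0.59 in Shn-RNAi (SE 0.21, 95% interval 0.10 to 1.07, adjusted p = 0.12) and 0.35 in Shn-RNAi puc (SE 0.21, interval -0.13 to 0.84, adjusted p = 0.31).

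The chain encoded by wb (wing blister, FBgn0261563, 2L 14263027 to 14328262, plus strand) is the scarcer α chain. Its transcripts stood at 8.09, 6.86 and 5.65 CPM in the controls, 14.0 and 9.47 CPM in Shn-RNAi, and 10.4 and 10.7 CPM in Shn-RNAi puc. All 4 RNAi libraries lay above the 3 controls. Among the 10 genes wb had the smallest p in both comparisons with control, with a log2 difference of 0.77 in Shn-RNAi (SE 0.22, interval 0.25 to 1.29, adjusted p = 0.068) and 0.62 in Shn-RNAi puc (SE 0.23, interval 0.10 to 1.14, adjusted p = 0.10). A fit of only the Shn-RNAi puc and control libraries gave wb an adjusted p of 0.044 at a log2 difference of 0.62. One other gene with counts, CG32971, lies inside the span of wb on the same strand.

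LanA (FBgn0002526, 3L 6203831 to 6218022, minus strand), the other α chain, stood at 31.3, 42.2 and 22.1 CPM in the controls, 39.5 and 29.4 CPM in Shn-RNAi, and 25.9 and 24.8 CPM in Shn-RNAi puc. LanB2 (FBgn0267348, 3L 9614914 to 9623980, plus strand), the γ chain, stood at 13.1, 18.8 and 10.03 CPM in the controls, 19.1 and 13.1 CPM in Shn-RNAi, and 14.2 and 16.2 CPM in Shn-RNAi puc. For both chains each RNAi group overlapped with control. The log2 differences from control were 0.11 and 0.20 in Shn-RNAi (adjusted p = 0.83 and 0.69) and -0.33 and 0.12 in Shn-RNAi puc (adjusted p = 0.45 and 0.82). Set against LanB1 per kb, LanA stood at 0.907, 0.828 and 0.648 in control, 0.584 and 0.563 in Shn-RNAi, and 0.520 and 0.474 in Shn-RNAi puc. All RNAi ratios were below all control ratios. A lower ratio to LanB1 without overlap was common, though: 45.2% of all genes had one in Shn-RNAi and 35.6% in Shn-RNAi puc. Set against wb, LanA stood at 3.75, 5.96 and 3.78 in the controls, 2.74 and 3.01 in Shn-RNAi, and 2.41 and 2.24 in Shn-RNAi puc, again without overlap, which 60.2% and 63.9% of all genes showed.

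Perlecan, a large heparan sulfate proteoglycan, is encoded by trol (FBgn0284408, X 2470460 to 2545427, minus strand, 25 annotated transcripts counted as 1 gene). It had the most counts of the 10 genes, at 98.3, 119 and 98.4 CPM in the controls, 170 and 120 CPM in Shn-RNAi, and 138 and 140 CPM in Shn-RNAi puc. Each RNAi library was above each control, Shn-RNAi library 2 by less than 1 CPM over control library 2. The log2 difference was 0.46 in Shn-RNAi (SE 0.19, interval 0.02 to 0.89, adjusted p = 0.17) and 0.40 in Shn-RNAi puc (SE 0.19, interval -0.04 to 0.83, adjusted p = 0.20).

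LanB1, wb and trol were all highest in Shn-RNAi library 1, which also had the largest excess of long transcripts. Shn-RNAi library 2 (-0.25) had less of that excess than control library 2 (-0.0014). In these libraries LanB1 stood at 27.9 and 27.2 CPM, wb at 9.47 and 6.86 CPM, and trol at 120 and 119 CPM, respectively. The part of transcript length in these values was not tested beyond a fit that corrects for it. With that trend taken out, the log2 differences of LanB1, wb and trol from control were 0.22, 0.26 and -0.08 in Shn-RNAi (adjusted p = 0.28, 0.38 and 0.71). They were 0.15, 0.39 and 0.17 in Shn-RNAi puc (adjusted p = 0.45, 0.17 and 0.37).

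SPARC (FBgn0026562, 3R 26869238 to 26871995, minus strand), the collagen-binding glycoprotein, stood at 28.9, 41.4 and 26.04 CPM in the controls, 29.4 and 50.6 CPM in Shn-RNAi, and 41.3 and 33.3 CPM in Shn-RNAi puc. It was the one gene of the 10 that was higher in Shn-RNAi library 2 than in library 1, and its groups overlapped. Its log2 difference from control was 0.31 in Shn-RNAi (SE 0.28, adjusted p = 0.53) and 0.21 in Shn-RNAi puc (SE 0.28, adjusted p = 0.66). Relative to Col4a1 per kb, SPARC ran from 5.36 in control library 2 to 47.8 in Shn-RNAi library 2, so these transcripts did not keep a fixed ratio.

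Pxn (FBgn0011828, 3L 2601455 to 2630064, minus strand), the crosslinking peroxidase, stood at 3.72, 4.65 and 3.50 CPM in the controls, 4.26 and 2.94 CPM in Shn-RNAi, and 2.73 and 2.90 CPM in Shn-RNAi puc. It was the one gene of the 10 with both Shn-RNAi puc libraries below all controls. The log2 difference there was -0.50 (SE 0.27, interval -1.11 to 0.12, adjusted p = 0.25), and -0.69 with the length trend taken out (SE 0.20, adjusted p = 0.047). With control library 2 also left out, it was -0.66 (adjusted p = 0.11). In Shn-RNAi the difference of Pxn was -0.14 (adjusted p = 0.79). Its last 82 bases overlap CG16986 on the other strand, and reads there cannot be told apart where strand was not used.

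**Figure D3:**
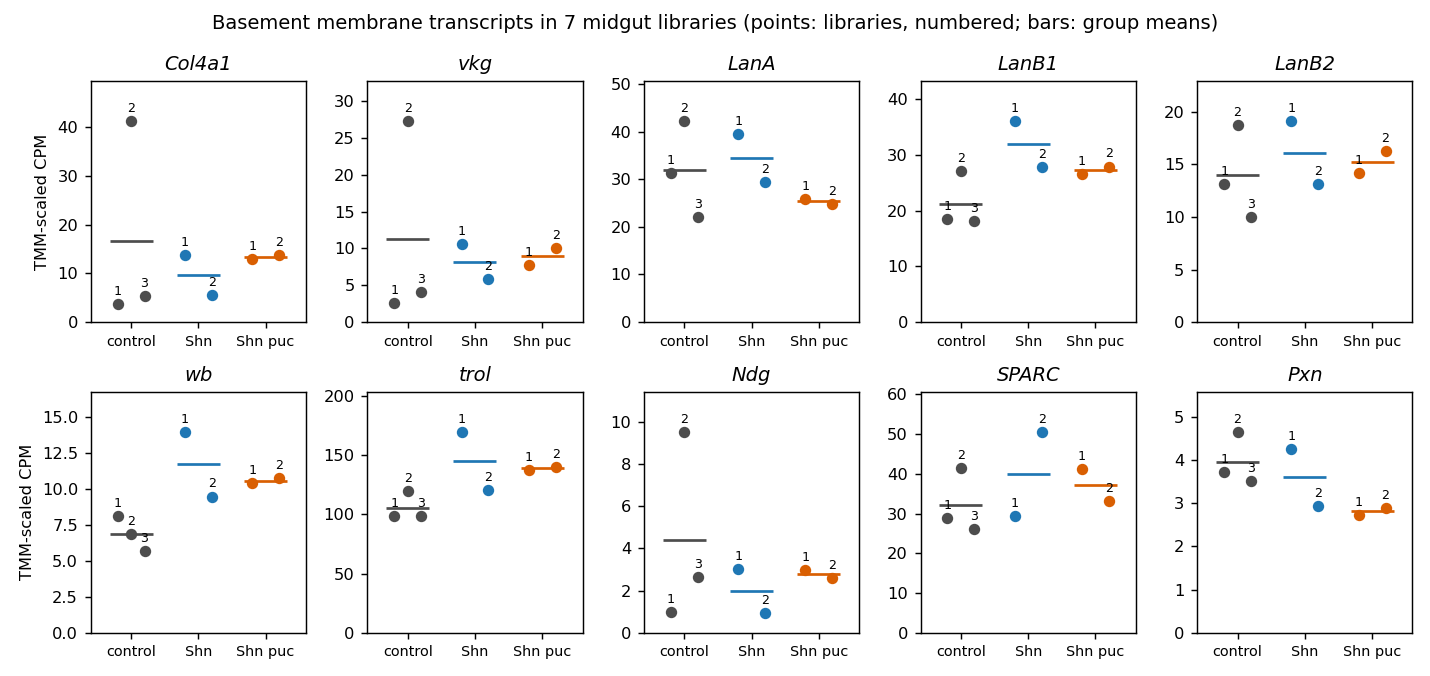
TMM-scaled CPM of the 10 genes in each library; points are libraries with their number, bars are group means, and each panel has its own axis from 0. Control library 2 stands far above the other controls for Col4a1, vkg and Ndg, and both Shn-RNAi libraries lie above all controls for LanB1, wb and trol.

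The first comparison, Shn-RNAi against control, asked which transcripts differ in midguts called tumor. Of the 10 genes 0 were called at an adjusted p under 0.05, where 9.62% of all 9076 genes were (6.06% higher and 3.56% lower). DESeq2 and limma-voom also called 0. At an unadjusted p under 0.05, 3 genes were higher (LanB1, wb and trol) and 0 lower, against 14.9% and 11.9% of all genes. Without overlap between libraries, the same 3 were higher and 0 lower, against 22.1% and 21.2% of all genes, so that count is near the background. The median log2 difference of the 10 was 0.16, against 0.03 over all genes, and 6 of the 10 lay above 0, as did 52.4% of all genes. Col4a1, vkg and Ndg had wide intervals, with log2 differences of -0.80 (interval -2.96 to 1.37), -0.48 (-2.48 to 1.52) and -1.13 (-3.10 to 0.83) and adjusted p of 0.64, 0.78 and 0.45. Without control library 2 these differences were 1.13 (SE 0.42, adjusted p = 0.15), 1.30 (SE 0.39, adjusted p = 0.088) and 0.17 (SE 0.63, adjusted p = 0.90). In that fit, which was not corrected for transcript length, the median of the 10 was 0.54 against 0.03 over all genes. With the length trend also taken out, the 10 differences ran from -0.42 (Pxn) to 0.78 (vkg). Those of LanA, trol and Ndg were then below 0 as well.

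The second comparison set Shn-RNAi puc, the group called severe tumor, against the same control libraries. Again 0 of the 10 genes were called, where 15% of all genes were (8.76% higher and 6.25% lower). DESeq2 and limma-voom called 0. At an unadjusted p under 0.05, 1 was higher (wb) and 0 lower, against 16.9% and 13.7% of all genes. Without overlap, 2 were higher (wb and trol) and 1 lower (Pxn), against 28.5% and 26.4%. The median log2 difference was -0.11 for the 10 genes and 0.02 for all, with 5 of the 10 and 52.3% of all genes above 0. Col4a1, vkg and Ndg differed by -0.34 (interval -2.47 to 1.78), -0.37 (-2.37 to 1.63) and -0.67 (-2.59 to 1.25), with adjusted p of 0.85, 0.82 and 0.65. Leaving out control library 2 turned these to 1.56 (SE 0.42, adjusted p = 0.057), 1.39 (SE 0.39, adjusted p = 0.061) and 0.61 (SE 0.62, adjusted p = 0.57). Those values set Col4a1 at 12.9 and 13.8 CPM against 3.65 and 5.26 CPM in the remaining controls. In that fit, which was not corrected for transcript length, the median of the 10 was 0.51 against 0.02 over all genes. With the length trend also taken out, the 10 differences ran from -0.66 (Pxn) to 1.25 (Col4a1), and that of LanA was below 0 as well (-0.45).

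The third comparison, Shn-RNAi puc against Shn-RNAi, asked what the puckered allele adds. Of the 10 genes 0 were called, where 0.143% of all genes were, and 0 had an unadjusted p under 0.05, against 3.43% higher and 2.95% lower among all genes. DESeq2 and limma-voom called 0. LanA and Pxn were lower in both Shn-RNAi puc libraries than in both Shn-RNAi libraries, against 11.9% of all genes, and 0 were higher without overlap, against 16.1%. In all, 3 of the 10 lay above 0, as did 48.9% of all genes. The log2 differences of LanA and Pxn were -0.44 (SE 0.29, interval -1.11 to 0.22, adjusted p = 0.88) and -0.36 (SE 0.29, interval -1.03 to 0.31, adjusted p = 0.90). The other 8 differences ranged from -0.23 (LanB1) to 0.46 (Ndg). The interval for Col4a1 was -1.89 to 2.80, with an SE of 1.02. Without control library 2, which enters the shared estimate of the spread, the SE was 0.40.

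**Figure D4:**
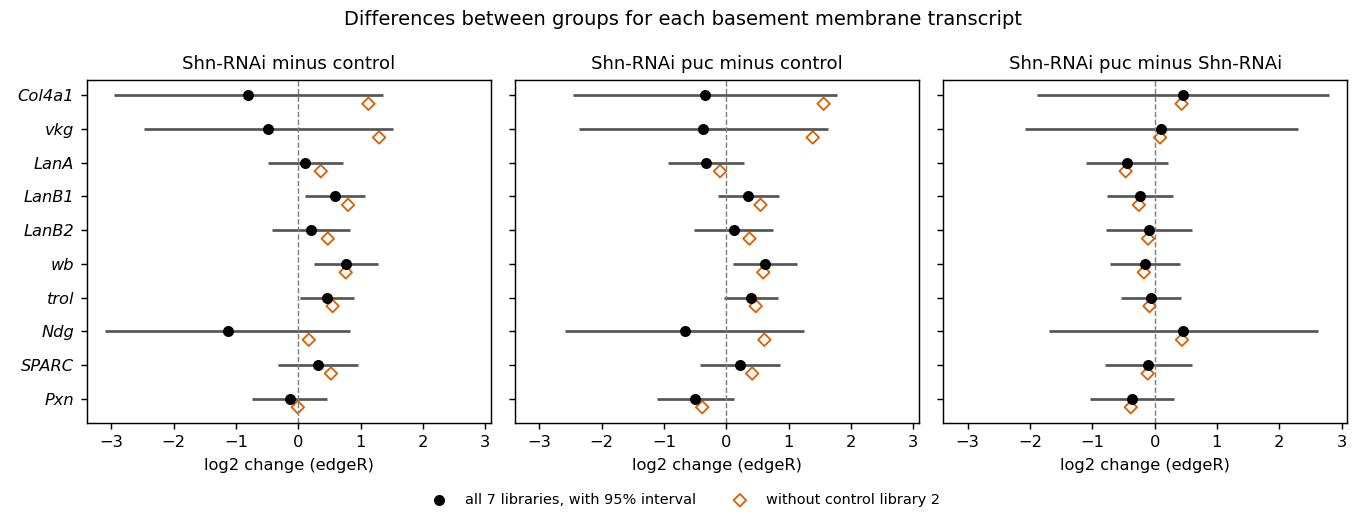
Log2 difference of each gene in the 3 comparisons, as black points with 95% intervals from the edgeR fit of 7 libraries; open diamonds give the fit without control library 2. In both comparisons with control the diamonds of Col4a1, vkg and Ndg lie to the right of 0 and their black points to the left, and elsewhere the pairs lie close together.

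The genes that secrete and modify basement membrane proteins gave no call either. Of 8 measured genes for collagen hydroxylation, export and crosslinking, 0 were higher and 0 lower in each of the 3 comparisons. The smallest adjusted p in Shn-RNAi was that of PH4alphaEFB, a collagen prolyl hydroxylase, at 10.2, 12.0 and 13.1 CPM in the controls, 16.8 and 21.0 CPM in Shn-RNAi, and 11.3 and 14.8 CPM in Shn-RNAi puc. Its log2 difference was 0.68 in Shn-RNAi (SE 0.19, adjusted p = 0.059). Tango1, which loads collagen into carriers at the endoplasmic reticulum, differed by 0.01 and 0.06 (adjusted p = 0.98 and 0.85).

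Among 11 tested genes for other matrix proteins, 0 were called in Shn-RNAi, and 2 were higher and 0 lower in Shn-RNAi puc. These were mfas, a fasciclin-domain adhesion protein (28.6, 23.2 and 26.8 CPM in the controls and 53.1 and 53.5 CPM in Shn-RNAi puc, log2 1.03, SE 0.15, adjusted p = 0.0061), and Mp, the fly relative of collagens XV and XVIII (0.716, 1.05 and 0.717 against 3.05 and 2.76 CPM, log2 1.78, SE 0.32, adjusted p = 0.012). Neither passed without Shn-RNAi puc library 1 (adjusted p = 0.053 and 0.095) or library 2 (0.065 and 0.11), nor did Mp without control library 1 (0.057). DESeq2 called 4 genes of this list higher in Shn-RNAi puc and 1 in Shn-RNAi. The list median was -0.04 and 0.19.

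Most measured receptors of the basement membrane were called higher. Of 12 matrix receptors 8 were higher and 0 lower in Shn-RNAi, and 8 and 0 in Shn-RNAi puc, against 6.06% and 8.76% of all genes higher, with list medians of 1.06 and 1.11 on the log2 scale. They were the integrin subunits mys, Itgbn, mew, scb, ItgaPS4 and ItgaPS5, the dystroglycan Dg and the collagen receptor relative Ddr, in both comparisons. ItgaPS4 stood at 1.72, 1.44 and 1.59 CPM in the controls, 5.77 and 10.49 CPM in Shn-RNAi, and 9.09 and 8.62 CPM in Shn-RNAi puc (log2 2.35 and 2.48, adjusted p = 0.0033 and 0.0025). Ddr had levels of 0, 0 and 0.0796 CPM in the controls, 1.74 and 2.05 CPM in Shn-RNAi, and 1.69 and 2.47 CPM in Shn-RNAi puc. ItgaPS5 stood at 0.0716, 0.166 and 0 CPM in the controls against 2.86 and 3.30 CPM in Shn-RNAi and 1.62 and 4.52 CPM in Shn-RNAi puc. All RNAi libraries were above all controls for these 3 receptors. Itgbn, the second integrin β chain, stood at 45.8, 51.5 and 42.4 CPM against 89.3 and 70.2 CPM and 104 and 98.2 CPM (log2 0.77 and 1.12, adjusted p = 0.026 and 0.0055). The β chain mys, partner of the laminin-binding α chain mew, stood at 121, 141 and 87.4 CPM in the controls, 365 and 306 CPM in Shn-RNAi, and 300 and 379 CPM in Shn-RNAi puc. The integrin subunit if was not called (log2 0.06 and 0.02), nor were the syndecan Sdc (0.09 and 0.04) and the glypicans dally (0.27 and -0.04) and dlp (0.23 and 0.19). Both counts were 8 without control library 2 as well, and with length taken into account. The count was 5 in Shn-RNAi without control library 1. In Shn-RNAi puc it was 5 without Shn-RNAi puc library 1 and 1 without library 2.

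Of 5 genes for matrix proteases and their inhibitor Timp, 3 were higher in Shn-RNAi and 4 in Shn-RNAi puc, and 0 lower, against 6.06% and 8.76% of all genes higher. The enzymes Mmp2 and AdamTS-A and the inhibitor were called in both comparisons. Mmp2, a membrane-anchored metalloproteinase, stood at 4.73, 4.92 and 2.15 CPM in the controls, 24.7 and 19.9 CPM in Shn-RNAi, and 27.7 and 36.9 CPM in Shn-RNAi puc (log2 2.48 and 3.02, SE 0.31 and 0.31, adjusted p = 0.0036 and 0.0016). The log2 differences were 1.32 and 1.72 for Timp (adjusted p = 0.02 and 0.0062) and 1.05 and 1.22 for AdamTS-A, a secreted protease (adjusted p = 0.014 and 0.0068). Mmp1 was called in Shn-RNAi puc alone (0.42 and 0.71, adjusted p = 0.22 and 0.048), a difference between the groups that was not called itself. Without control library 1 the count in Shn-RNAi was 1, as Timp (adjusted p = 0.057) and AdamTS-A (0.062) did not pass. Timp in Shn-RNAi also missed it without control library 2 (0.053), control library 3 (0.071) or Shn-RNAi library 2 (0.08), and AdamTS-A with length corrected for (log2 0.70, adjusted p = 0.12). Mmp1 in Shn-RNAi puc missed it without control library 1 (0.18), 2 (0.063) or 3 (0.16). The count was 2 and 1 in Shn-RNAi puc without Shn-RNAi puc library 1 and library 2, where AdamTS-A (0.058 and 0.072), Mmp1 (0.20 and 0.22) and, without library 2, Timp (0.081) did not pass. AdamTS-B was called in neither comparison.

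**Figure D5:**
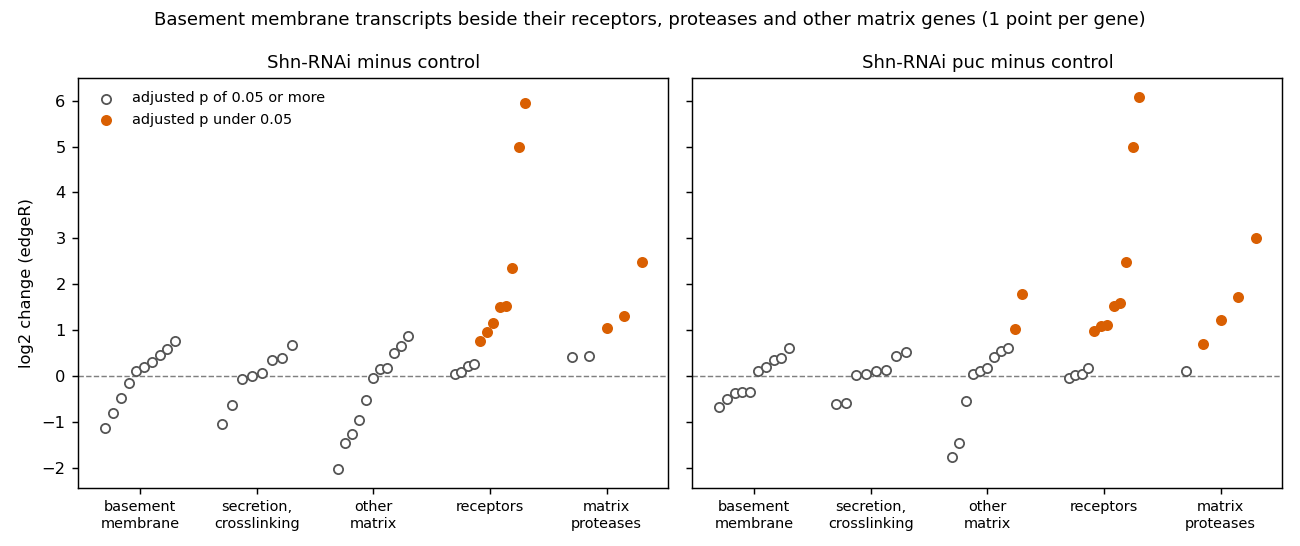
Log2 difference from control of each tested gene, by list, for Shn-RNAi (left) and Shn-RNAi puc (right), sorted within a list; filled points had an adjusted p under 0.05. Filled points are found among receptors (8 and 8) and matrix proteases (3 and 4), with 2 among other matrix genes in Shn-RNAi puc and 0 among the 10 basement membrane genes.

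Some visceral muscle genes and 1 hemocyte marker differed from control beside these values. Of 15 visceral muscle genes 4 were lower and 1 higher in Shn-RNAi, and 8 lower and 1 higher in Shn-RNAi puc. Over all genes, 3.56% were lower and 6.06% higher in Shn-RNAi, and 6.25% lower and 8.76% higher in Shn-RNAi puc. A count of 1 in the lists of this paragraph is near those shares. The list summed to 4507, 4806 and 4707 CPM in the controls, 3400.1 and 3197 CPM in Shn-RNAi, and 3112 and 2712 CPM in Shn-RNAi puc. The troponin C gene TpnC47D stood at 82.2, 83.6 and 81.5 CPM in the controls, 30.7 and 37.9 CPM in Shn-RNAi, and 21.6 and 18.3 CPM in Shn-RNAi puc (log2 -1.27 and -2.05, adjusted p = 0.0038 and 0.00074). The actin Act57B (-0.90 and -1.23, adjusted p = 0.032 and 0.0087) and the myosin light chain Mlc2 (-0.68 and -0.84, adjusted p = 0.039 and 0.016) were also lower, though in Shn-RNAi both lost the call without any 1 control or Shn-RNAi library. Act87E, a muscle actin, was lower (log2 -1.20 and -1.77, adjusted p = 0.0071 and 0.0016) and Zasp52, a Z-disc protein, higher (0.99 and 1.43, adjusted p = 0.0096 and 0.002), although the call of Zasp52 in Shn-RNAi was lost without control library 1 (adjusted p = 0.057) and after correction for length (0.065). The count of lower muscle genes was 2 in Shn-RNAi without any 1 control or Shn-RNAi library, and between 2 and 4 in Shn-RNAi puc without any 1 control or Shn-RNAi puc library. With the length trend taken out it was 9 in Shn-RNAi, and 3 with control library 2 also left out. In Shn-RNAi puc these counts were 11 and 7. Hml, a defining hemocyte marker, stood at 3.44 and 4.80 CPM in Shn-RNAi puc, against 0.785 and 0.440 CPM in Shn-RNAi. It was higher than in control in Shn-RNAi puc (log2 2.61, adjusted p = 0.0061), but not without Shn-RNAi puc library 1 (adjusted p = 0.055) or library 2 (0.11). No other of the 6 tested hemocyte markers was called in any comparison. Of the other defining hemocyte markers, NimC1 stood at 0.195 and 0.495 CPM and eater at 0.325 and 0.565 CPM in Shn-RNAi puc. Both were at 0 in the Shn-RNAi libraries. The hemocyte list summed to 71.8 and 57.0 CPM in Shn-RNAi and 72.4 and 94.5 CPM in Shn-RNAi puc. Of these sums crq, not a defining marker, gave 61.9 and 48.5 CPM in Shn-RNAi and 52.2 and 71.6 CPM in Shn-RNAi puc. Of 8 progenitor markers 2 (peb and hdc) were higher in Shn-RNAi and 0 in Shn-RNAi puc. The defining progenitor markers were called in neither: esg (log2 0.07 and 0.11, adjusted p = 0.88 and 0.77) and Dl (0.59 and 0.37, adjusted p = 0.4 and 0.6). Of 7 enterocyte markers 3 (Amy-p, Amy-d and nub) were higher in Shn-RNAi and 2 (Amy-p and nub) in Shn-RNAi puc, and 0 and 1 (betaTry) were lower. Of 7 enteroendocrine markers 1 (NPF) was lower, in Shn-RNAi puc, and of the tested fat body (6) and tracheal (5) markers 0 were called. Leaving out 1 library moved the progenitor count in Shn-RNAi from 2 to between 0 and 1, and peb was also lost with length corrected for (adjusted p = 0.11). It moved the enterocyte counts from 3 to between 1 and 2 and from 2 to between 0 and 3 higher, and those of betaTry and NPF from 1 to as low as 0. The part of any of these tissues in the basement membrane values was not tested.

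Profiles over the 7 libraries were compared by the root mean square difference of centred log2(CPM + 0.5), as a description. Of the other 9075 genes tested, the nearest to Col4a1 were vkg (0.22), Ndg (0.44) and Tig (0.51). With control library 2 left out, vkg was the third nearest gene to Col4a1, at 0.22, and the basement membrane gene closest to Ndg, Col4a1, went from place 3 to place 786. The nearest to LanB1 were pon (0.07), Sema2b (0.07) and CG17162 (0.07), and its closest basement membrane gene was trol at place 41 (0.12). The nearest to trol were jvl (0.04), dlg1 (0.05) and CG33981 (0.05), with LanB1 at place 146. SPARC had no close partner among the 10, its nearest being LanB1 at place 2376 (0.35).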

How the data were processed

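Whole-number counts per gene, as deposited, were used for 7 midgut libraries. Salmon 1.0.0, DESeq2 and the build BDGP6 are named in the submitters' processing notes. What each was used for, any rounding and the use of strand are not given in the sources used here. Column names give a group and a number but no sample, so a column is called a library of its group. In R 4.3.3, edgeR 4.0.16 kept 9076 of 10902 genes (filterByExpr by group) and scaled libraries with TMM. A single quasi-likelihood fit covered the 3 groups, with 4 residual degrees of freedom. The two-sided p-values were adjusted across those 9076 genes (Benjamini-Hochberg) and called under 0.05. The SE is the log2 change over the square root of F; intervals are 95%. The length trend was taken out as a lowess curve per library (span 0.3). Alternatives used DESeq2 1.42.0, limma 3.58.1 (voom), other scalings, filters and fits. Positions and lengths come from an Ensembl annotation of BDGP6, which matched 99.70% of symbols. The scripts were tested on simulated counts. The 10 genes and the other lists were chosen with earlier results of these data known. Named were all 10 genes and, per list and comparison, up to 4 called genes with the smallest p, or all called where 5 or fewer, and the 3 profiles nearest to Col4a1, LanB1 and trol; others were named after their values were seen. Loxl2, He, Lsp2, Fbp1, dys and promoter sequences were not analysed here.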

Additional observations from a re-analysis of the deposited data

How the results depend on the processing

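Across 30 log2 differences (10 genes, 3 comparisons) and 18 alternatives each, 538 of 540 values missed the threshold. The exceptions, both in Shn-RNAi puc against control, made the count of called genes 1 in place of 0: wb in the fit of only the 2 groups compared (adjusted p = 0.044) and Pxn with the length trend taken out (adjusted p = 0.047); the cause was not tested. With the trend taken out and control library 2 left out, chosen after seeing the data, the count was 0. In 492 values the direction and the side of the threshold stayed as reported.

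Directions that turned, none past the threshold, follow by setting. With limma-voom, vkg in Shn-RNAi was 0.15, and Col4a1 and vkg in Shn-RNAi puc were 0.42 and 0.28. With the length trend taken out, the differences of LanA, LanB2 and trol in Shn-RNAi were -0.37, -0.15 and -0.0785, that of LanB2 in Shn-RNAi puc was -0.0755, and those of LanB2, wb, trol and SPARC between the RNAi groups were 0.0742, 0.13, 0.25 and 0.0009. With control library 2 also left out, Col4a1, vkg, LanA and trol in Shn-RNAi were 0.61, 0.78, -0.27 and -0.13, Col4a1, vkg and Ndg in Shn-RNAi puc were 1.25, 1.06 and 0.34, and LanB2, wb and trol between the RNAi groups were 0.0558, 0.11 and 0.24.

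Leaving out 1 library at a time turned these directions, again none past the threshold. In Shn-RNAi the ranges were -1.58 to 1.13 for Col4a1, -0.98 to 1.30 for vkg, -0.12 to 0.36 for LanA, -0.0933 to 0.47 for LanB2, -2.20 to 0.17 for Ndg, -0.13 to 0.65 for SPARC and -0.43 to 0.11 for Pxn. In Shn-RNAi puc they were -0.80 to 1.56 for Col4a1, -0.83 to 1.39 for vkg, -0.0712 to 0.37 for LanB2 and -1.13 to 0.61 for Ndg. Between the RNAi groups they were -0.0374 to 1.24 for Col4a1, -0.26 to 0.62 for vkg, -0.33 to 0.21 for LanB2, -0.40 to 0.16 for wb, -0.29 to 0.21 for trol, -0.11 to 1.55 for Ndg and -0.44 to 0.34 for SPARC.

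Over all genes, the number called higher and lower was 550 and 323 in Shn-RNAi, and 221 to 534 and 64 to 301 without 1 library. In Shn-RNAi puc it was 795 and 567, and 139 to 1033 and 33 to 839. The column names number libraries 1 and 2 in each group. Nothing says that a number marks a shared batch. The deviations of same-numbered libraries from their group means correlated across 9076 genes at -0.1553 to 0.2156. In a group of 2 libraries the deviations are mirror images, so these correlations cannot show whether a batch was shared. A replicate block by that number, chosen after seeing the data, called 0 of the 10 genes in all 3 comparisons. It called 230 and 91 of all genes higher and lower in Shn-RNAi, and 309 and 159 in Shn-RNAi puc, with 5 of the receptors and 1 of the 5 protease and inhibitor genes higher in Shn-RNAi. The block turned LanA in Shn-RNAi to -0.0953, LanB2 in Shn-RNAi puc to -0.0641 and vkg between the RNAi groups to -0.0507. The promoter description was not run. Groups of 2 or 3 libraries limit what can be called, and low counts limit Ndg further.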
